A study of Homo sapiens with 2 samples.

Results

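The insulin-like growth factor (IGF) family was read on these arrays at 10 genes, namely the ligands IGF1 and IGF2, the receptors IGF1R and IGF2R, and the binding proteins IGFBP1 to IGFBP6. The genes were chosen with earlier results of these data known. Their probes were taken by gene symbol alone, as every non-control probe that the array annotation assigns to one of the genes. This gave 19 probes on 46 spots, out of 41000 probes for 30982 gene names. RNA came from Y79, an established human retinoblastoma cell line grown in suspension. One array held siRNA-untreated cells and the other held cells collected 48 h after siRNA against Ep-CAM (TACSTD1). According to the methods of the study both cultures had first been exposed to the demethylating agent 5′-azacytidine, which the sample labels do not give. The labels and the results text of the study give the comparator as untreated cells. A legend of the study names both untreated cells and a nonsilencing control siRNA, and the labels were followed here. No array labelled as given a control siRNA was analysed here, so the siRNA treatment and the loss of Ep-CAM cannot be told apart. With 1 array per condition no test between the conditions was possible, and every ratio below describes these 2 arrays.

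IGF1 and IGF2 are small secreted hormones related to insulin. Both act mainly through IGF1R, a receptor tyrosine kinase that feeds the PI3K-AKT and RAS-ERK pathways, whereas IGF2R carries IGF2 to the lysosome and has no kinase. The 6 binding proteins hold the ligands outside the cell, and according to the setting they restrain or prolong ligand action. In tumors of the nervous system and retina the axis is known as a source of growth and survival signals.

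On these arrays 1 IGF family probe was higher after siRNA treatment, that of IGFBP1, and 1 was lower, the probe over the coding part of IGF1 that encodes the mature hormone. The other 11 probes with a ratio lay between -0.21 and 0.38 on the log2 scale. They included both IGF1R probes, IGFBP2 and IGFBP6, and the remaining ratios of IGF1, IGF2, IGFBP3, IGFBP4 and IGFBP5. No IGF2R probe was well above background on either array. The IGF2 probe over its coding end went from a signal of 67.6 to 801, but that spot carried an outlier flag and gave no ratio.

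The signals are spot brightness in arbitrary units after background subtraction by the scanner software. The median over all transcript spots was 48.8 on the untreated and 50.0 on the treated array. For a ratio each array was divided by that median, and a log2 ratio of 1 or more (at least 2.00-fold) was called higher and -1 or less was called lower. The scanner software marks a spot as well above background from its own noise estimate, and the dimmest probe so marked had a signal of 14.9 on the untreated and 17.5 on the treated array. Probes marked on neither array are called dim here and have no ratio. Spots printed repeatedly for the same probe gave the technical error. Over 190 such probes the log2 ratio of the spots had a median SD of 0.14, and over the 116 of them with an untreated signal of 30 to 250, the range of most IGF family probes, it was 0.16. This error covers spotting and scanning, not cell culture or labelling.

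Facts on the arrays as a whole touch single results. Of the probes called higher, 266 of 372 lay in a corner region made of the last 178 rows and the last 43 columns of the array (16.8% of the transcript spots). Of those called lower, 108 of 272 lay there. In this region the log2 ratios of measured probes had an SD of 0.51 against 0.29 outside. How the bounds of the region were set is not recorded here, so these values describe it and do not test it. Repeated probes show the same region from within, because a probe then has spots inside and outside it. Relative to the median of the spots outside, the 224 repeated spots in the corner had an SD of 0.33 and 3 of them lay at least 1 away, while the 1511 spots outside had an SD of 0.15 and 0 lay that far. The single Ep-CAM probe was dim on both arrays, with signals of 15.6 and 12.0, so the siRNA label was not checked by its target. Both arrays came from 1 slide. Of 10 photoreceptor markers 4 were measured (CRX, OTX2, ARR3 and GNB3), while RCVRN, NEUROD1, RXRG, NRL and PDE6H were dim. Markers of other cell types were also above background, 13 of 17 genes, so the markers did not separate the cell types at this signal level.

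The sequences of 4 of the 19 probes are shown, of those that read coding sequence across a splice junction, because this places each of them on a known piece of the protein. The sequences are those of the array design and run 5′ to 3′ on the transcript, and the positions are on hg17. All of them lie on minus-strand genes.
IGF1 A_24_P304419: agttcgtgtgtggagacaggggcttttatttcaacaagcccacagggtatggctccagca
IGF2 A_23_P421379: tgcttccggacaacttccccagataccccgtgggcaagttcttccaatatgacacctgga
IGFBP3 A_24_P320699: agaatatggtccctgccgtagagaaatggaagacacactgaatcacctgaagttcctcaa
IGFBP5 A_23_P376497: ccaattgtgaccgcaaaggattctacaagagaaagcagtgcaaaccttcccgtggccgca
The IGF1 probe (chr12:101315909-101371920) joins exons across a stretch of 56012 bases and encodes part of the mature hormone. The IGF2 probe (chr11:2110978-2111330) lies in the part that encodes the E peptide, which is cut from pro-IGF2. The IGFBP3 probe (chr7:45729454-45730058) and the IGFBP5 probe (chr2:217367090-217368378) encode parts of the carboxy-terminal domain. Another 14 probes each map to an unbroken stretch of 60 bases, and no exon or UTR annotation of that build was used for them. The sequence and position of the remaining probe, A_24_P304423 of IGF1, are not reported here.

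**Figure D1:**
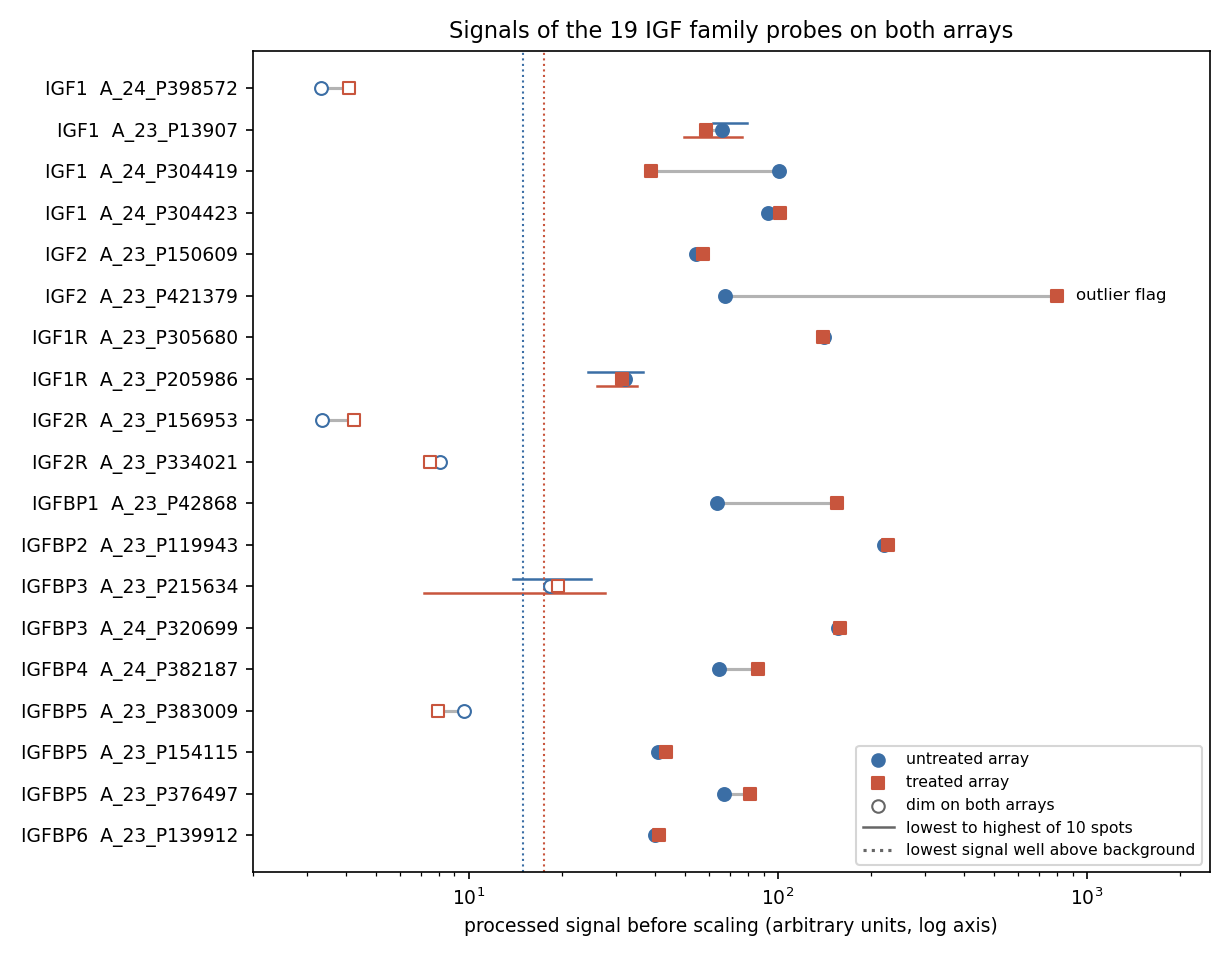
Processed signal of each IGF family probe before scaling (log axis, arbitrary units), with circles for the untreated and squares for the siRNA-treated array, open where the probe was dim on both, and bars from the lowest to the highest of 10 spots (marker at the median). Most pairs overlap, whereas IGF1 A_24_P304419 moved from 101 to 39.0, IGFBP1 from 63.5 to 156, and IGF2 A_23_P421379 from 67.6 to 801 with an outlier flag.

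IGF1, the main circulating mediator of growth hormone and a local survival factor, has 4 probes, and they did not give a single answer. The probe over the mature hormone read 101 in untreated and 39.0 in treated cells, a log2 ratio of -1.41 (0.376-fold). The error that the scanner software gives for the 2 signals amounts to 0.29 on that log2 scale, and the technical SD is 0.14, so the difference is several times the error of the spots. The raw brightness before background subtraction fell from 163 to 104. This spot lies at row 5 and column 17, outside the corner, and among the 64 measured spots within 5 rows and 5 columns the log2 ratios had a median of -0.08 and an SD of 0.24, with 0 past either threshold. A further 10 spots there were above background on only 1 of the arrays, and 1 of them was past the threshold, at -2.56. The IGF1 spot stood at -5.44 local SDs from the median of the 64 measured spots.

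A second IGF1 probe (A_24_P304423) read 93.3 and 102, which is 0.09 on the log2 scale. These 2 probes differed by 1.50 in log2 ratio, with a combined software error of 0.36. The third IGF1 probe (A_23_P13907, chr12:101298733-101298792) was printed 10 times. Its signals ran from 61.8 to 79.3 with a median of 66.3 on the untreated array, and from 49.9 to 76.8 with a median of 58.8 on the treated array. The ranges overlap, but spot by spot the shift ran one way. All 8 spots without an outlier flag were lower on the treated array after scaling, with a mean log2 ratio of -0.27 ± 0.15 (SD, n = 8 spots) and the lowest at -0.49. Averaged per array over every unflagged spot the ratio was -0.21. The fourth IGF1 probe (A_24_P398572), nearest to the 3′ end of the gene, was dim with signals of 3.33 and 4.09.

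The size of the IGF1 result therefore depends on the probe. The ratios of the 3 measured probes were -1.41, -0.21 and 0.09, the last of them within the technical SD of 0.14. The array annotation gives all 4 the same IGF1 transcript. Whether transcripts that differ at these positions were present was not tested.

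IGF2, a growth factor of fetal tissue expressed from an imprinted locus, was read by 2 probes. The first (A_23_P150609, chr11:2106970-2107029) read 54.6 and 57.3, a log2 ratio of 0.03, inside the technical SD. The second, over the E peptide, read 67.6 in untreated and 801 in treated cells. On the treated array the scanner software marked this spot as an outlier, and its pixels had an SD of 46.1% of their mean against 15.2% on the untreated array. No ratio was called. With the flag ignored it would be 3.53.

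The surroundings of that spot moved with it. It lies at row 485 and column 82 in the corner, and among the 53 measured spots within 5 rows and 5 columns the log2 ratios had a median of 0.29 and an SD of 1.05. Of these, 11 were at 1 or more, up to 3.81. The plot of the spots around it shows a patch of raised spots that run on across neighboring rows, on probes of other genes. Between the 2 probes of IGF2, the one outside the corner is the one with an unflagged value.

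**Figure D2:**
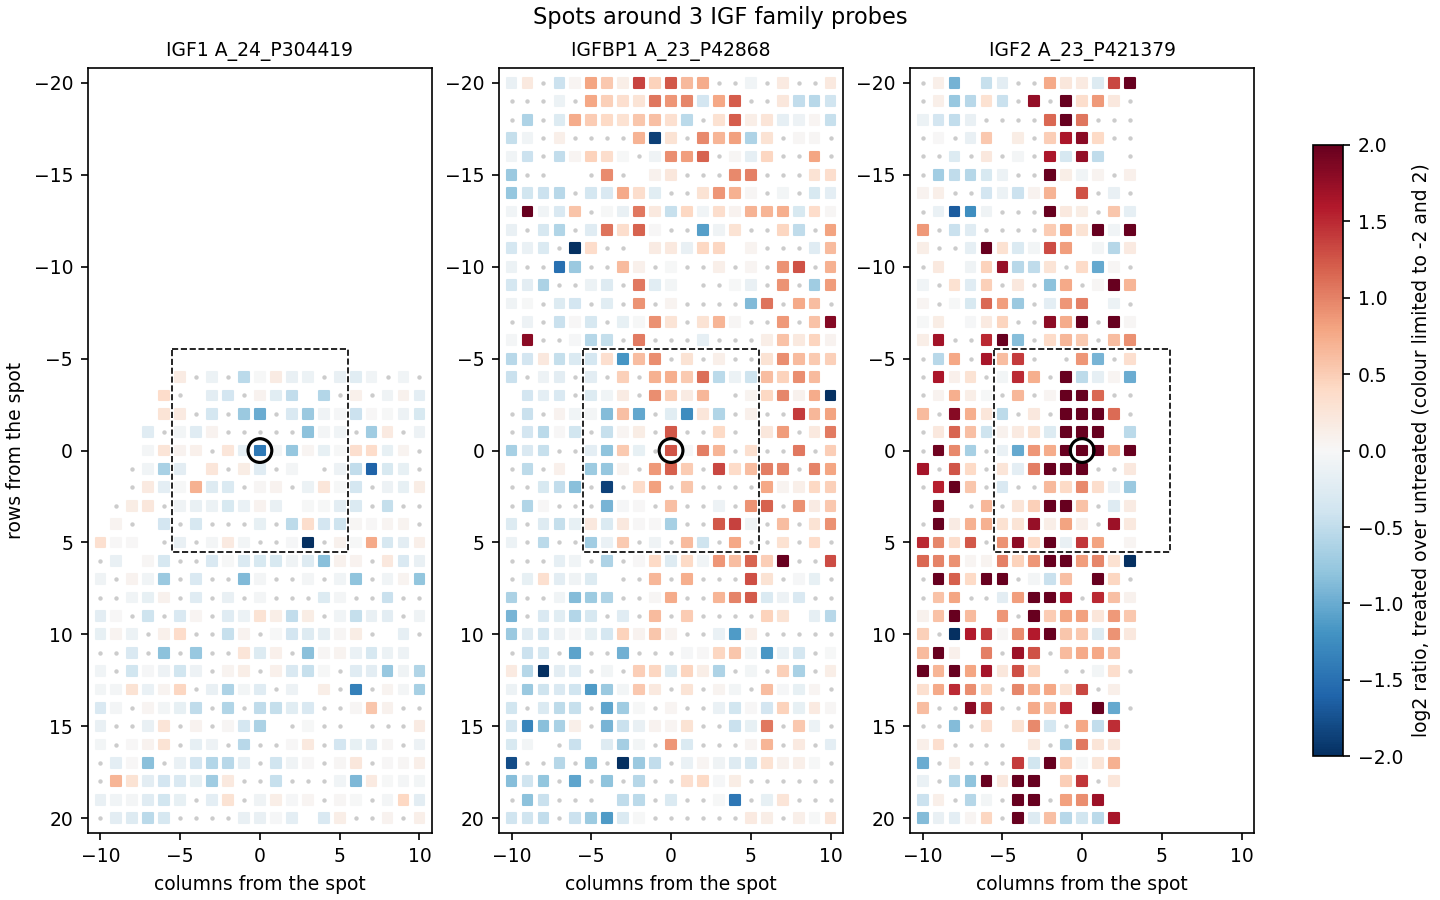
Spots around 3 IGF family probes (circled), by rows and columns from the probe, coloured by log2 ratio of the treated over the untreated array (red higher, blue lower), with grey dots for spots dim on both arrays and the dashed box for 5 rows and 5 columns on each side. Most spots near the IGF1 spot are pale (SD 0.24 over the measured ones in the box), with a few other blue ones, the IGFBP1 spot lies in a band of mostly red spots (SD 0.65), and the IGF2 spot lies in a dense patch of strongly red spots (SD 1.05).

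IGF1R, the receptor through which both ligands signal, did not move beyond the spot error at either probe. The probe printed 10 times (A_23_P205986, chr15:97318690-97318749) had signals from 24.3 to 36.7 with a median of 32.0 on the untreated array and from 26.0 to 35.0 with a median of 31.3 on the treated array. The ranges overlap almost entirely. Over 8 unflagged spots the mean log2 ratio was -0.08 ± 0.27 (SD, n = 8 spots), with 6 spots lower and 2 higher, and the per-array average gave -0.05. The other probe (A_23_P305680, chr15:97261035-97261094), which the annotation ties to a clone of the locus rather than to the receptor mRNA, had signals of 141 and 140, also a log2 ratio of -0.05.

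IGF2R, which clears IGF2 from the cell surface, was dim at both probes. Signals were 3.36 and 4.26 at A_23_P156953 (chr6:160496607-160496666), and 8.11 and 7.53 at A_23_P334021 (chr6:160497525-160497584). All lay below the dimmest signal well above background on their array. A change in IGF2R was not detectable at this signal, and the values do not show that the gene was silent.

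IGFBP1, a binding protein known to be raised by fasting and lowered by insulin through FOXO factors, was the member called higher. Its only probe (A_23_P42868, chr7:45706206-45706265) read 63.5 in untreated and 156 in treated cells, a log2 ratio of 1.26 (2.40-fold) with a software error of 0.23. The raw brightness rose from 124 to 212. No second probe measured IGFBP1.

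The IGFBP1 spot lies at row 492 and column 55, inside the corner. Among the 70 measured spots around it the log2 ratios had a median of 0.16 and an SD of 0.65, with 7 at 1 or more and 3 at -1 or less. After subtraction of that median the IGFBP1 ratio was 1.10, still past the threshold, at a distance of 1.68 local SDs. The part of the position in this result was not tested.

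IGFBP2, the binding protein common in developing brain and eye, read 220 and 227 (A_23_P119943, chr2:217354592-217354651), a log2 ratio of 0.01. IGFBP3, the main carrier of IGFs in blood, had signals of 157 and 159 at its coding probe, a log2 ratio of -0.01. Its other probe (A_23_P215634, chr7:45725848-45725907), printed 10 times, was marked well above background at 4 of 10 spots on each array and counted as dim, with medians of 18.4 and 19.5.

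The repeated spots of IGFBP3 spread widely all the same. From 13.9 to 24.9 on the untreated array they went to 7.18 to 27.7 on the treated array, and the spot ratios had an SD of 0.70 over 9 unflagged spots. The lowest, at -1.83, came from row 509 and column 76. The corner spot of the repeated IGF1 probe lies in the row just before, at row 508 of that column, and went the other way with 0.28, against -0.28 ± 0.15 (SD, n = 9 spots, flagged or not) outside the corner. The IGFBP3 spot was dim on both arrays and the IGF1 spot carried an outlier flag on the untreated array, so neither is a measured value. The other corner spot of the IGFBP3 probe, at row 370, gave -0.02.

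**Figure D3:**
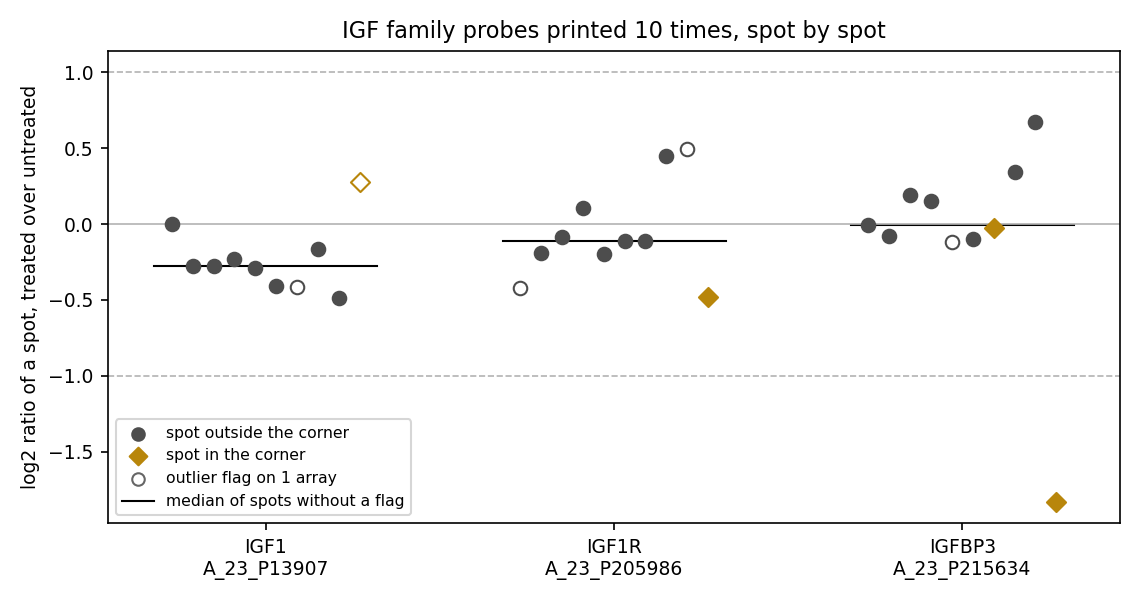
Log2 ratio of each of the 10 spots (points, ordered by row on the array) of the IGF1, IGF1R and IGFBP3 probes printed repeatedly, with diamonds for spots in the corner, open symbols for spots with an outlier flag on either array, and a line at the median of unflagged spots. IGF1 spots outside the corner lie at or below 0 while its corner spot lies at 0.28, and the lowest IGFBP3 point, -1.83, is a corner spot of a dim probe.

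IGFBP4, an inhibitory binding protein cleaved by the protease PAPPA, had signals of 64.5 and 86.1 (A_24_P382187, chr17:35866834-35866893). Its log2 ratio of 0.38 was the highest among the uncalled members and exceeded the software error of 0.24. The spot lies at row 518 and column 41, within 5 columns of the corner, and the 77 measured spots around it had an SD of 0.47. IGFBP5, which binds matrix and bone mineral, gave 0.25 at its coding probe (66.8 and 81.4) and 0.05 at A_23_P154115 (40.9 and 43.4), while A_23_P383009 was dim (9.70 and 7.99). IGFBP6, which prefers IGF2 over IGF1, read 40.0 and 41.4 (A_23_P139912, chr12:51781120-51781179), a log2 ratio of 0.02.

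In all, 13 of the 19 probes, from 9 of the 10 genes, had a ratio, 5 were dim and 1 was lost to the outlier flag. One of the 13 was called higher, where 1.27% of the 29345 probes tested on the arrays were, and 5.34% of the 4981 tested in the corner. One was called lower, where 0.927% of all probes were. A single probe in each direction does not set the family apart. The median log2 ratio of the 13 was 0.02, against -0.03 over all measured probes. Of 6 genes with more than 1 probe, 3 had more than 1 measured probe. At IGF1R and IGFBP5 those probes stayed within 0.20 of each other, and at IGF1 they did not.

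The pathway around the family was read at 64 other genes, each at its brightest probe. Of the 63 with a probe, 49 were measured on both arrays, 3 had a bound and 11 were dim. INS was called higher and 0 genes were called lower, where over all genes 1.29% and 0.876% were. The median log2 ratio of the 49 was -0.02, equal at 2 decimals to the -0.02 over all genes.

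INS, the insulin gene, read 117 and 311 at its only probe, a log2 ratio of 1.37 (2.59-fold). Its spot is 4 rows and 4 columns from that of IGFBP1, in the same corner, and the 64 measured spots around it had a median log2 ratio of 0.61 and an SD of 0.49. After subtraction of that median the INS ratio was 0.77, below the threshold. INSR, the insulin receptor and closest relative of IGF1R, was above background only on the untreated array, with signals of 25.4 and 16.7. It was at least 1.49-fold lower, a log2 bound of -0.58 with a software error of 0.46. INSRR, the orphan member of that receptor family, gave 0.12. IRS1 was dim, with signals of 3.98 and 4.79. IRS2, the other main substrate of the receptors, gave -0.15 at its brightest probe and 0.00 to 0.42 at 2 others.

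In the remaining roles no gene passed the threshold at its brightest probe. Among PI3K-AKT genes 6 of 10 were measured, between -0.19 and 0.17 with a median of -0.06. PIK3R1, a regulatory subunit of PI3K, was dim on the treated array and at least 1.94-fold lower, a log2 bound of -0.95 with a software error of 0.66. AKT1, read on 10 spots, gave -0.05.

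All 6 AKT substrates were measured, and their ratios ran from -0.60 to -0.04 with a median of -0.30. Over all genes measured at their brightest probe, 54.9% lay below 0. GSK3A, the kinase held inactive by AKT, read 16941 and 11549 (-0.59). GSK3B on its 10 spots gave -0.48 with an SD of 0.12 over the spots. FOXO1 and FOXO3, the factors that AKT keeps out of the nucleus, gave -0.13 and -0.60, both in the corner. The other FOXO1 probe, also there, gave 0.91, and the other measured FOXO3 probe gave -0.18. The measured spots around the brightest FOXO3 probe had a median of -0.24, so that -0.36 was left after its subtraction. FOXO4 gave -0.07, and its 2 other measured probes gave 0.04 and, in the corner, 0.93. In the TOR arm RPS6KB1, the ribosomal S6 kinase, had the lowest ratio among the pathway genes measured on both arrays at -0.85 (387 and 220), and the other 6 measured genes lay between -0.06 and 0.29.

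The 9 RAS-ERK genes included 8 measured ones between -0.33 and 0.17. GRB10, an adaptor that dampens IGF1R and INSR, gave -0.82, and GHR, the growth hormone receptor, gave -0.82 in the corner, where the 69 measured spots around it had a median of -0.62, so that -0.20 was left after its subtraction. IGF2BP2, which binds IGF2 mRNA, gave -0.64. Together 6 of the 49 measured genes lay at -0.5 or less, GRB10, GHR, IGF2BP2, RPS6KB1, GSK3A and FOXO3, and 1 at 0.5 or more, INS. Over all genes at their brightest probe the shares were 6.57% and 3.87%. Genes below the threshold were named after their values were seen.

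Among the genes that act on the binding proteins 3 of 5 were measured, at -0.02 to 0.24. PAPPA, the protease of IGFBP4, gave -0.02 at its brightest probe and 0.65 at the other measured one, which lies in the corner. Its inhibitor STC1 gave 0.24. STC2, a second inhibitor, was dim on the treated array and at least 1.86-fold lower, from a corner spot. That is a log2 bound of -0.90 with a software error of 0.45. IGFALS, which completes the circulating complex with IGFBP3, gave 0.22. M6PR, the smaller mannose 6-phosphate receptor beside IGF2R, was dim at its brightest probe, while a second probe went from a dim 3.96 to 32.4 and was at least 2.12-fold higher.

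**Figure D4:**
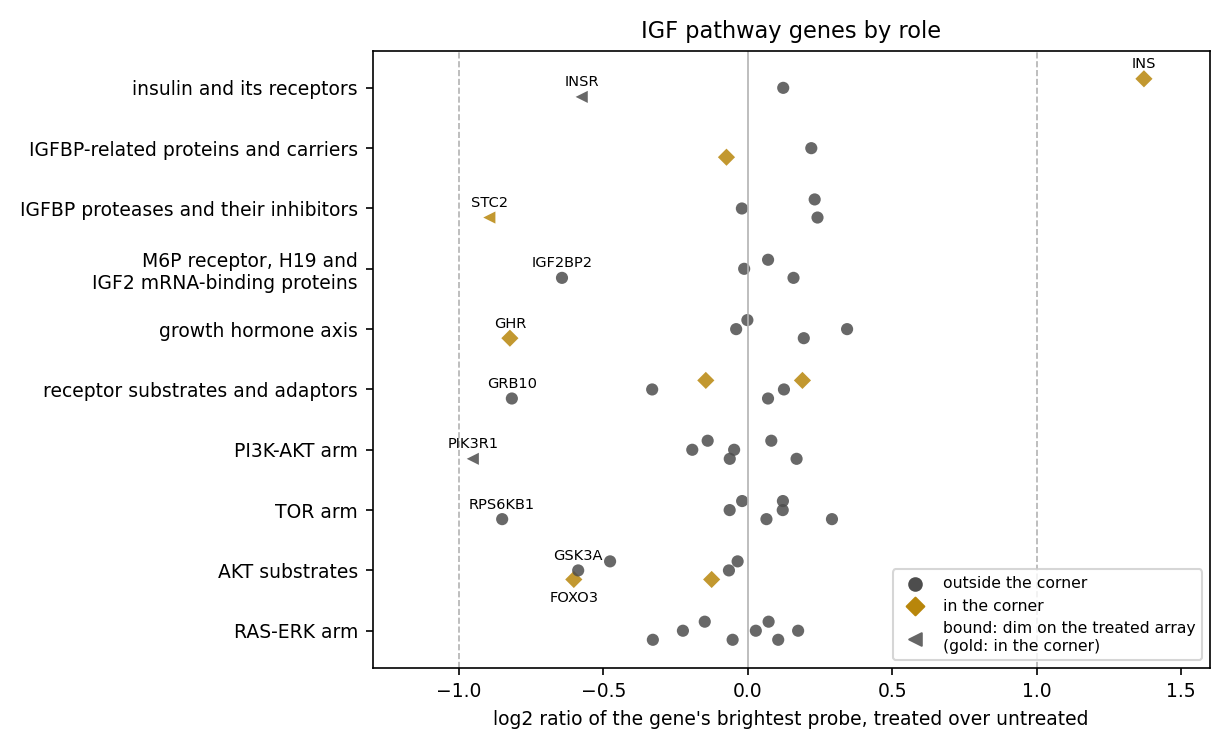
Log2 ratio of the treated over the untreated array at the brightest probe of each IGF pathway gene, by role, with gold diamonds for probes in the corner, triangles for genes dim on the treated array (a bound), and dashed lines at the thresholds of 1 and -1. INS at 1.37 is the only gene past a threshold, and the genes named on the left lie between -0.95 and -0.58.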

How the data were processed

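The data were 2 one-color Agilent arrays, 1 of siRNA-untreated and 1 of siRNA-treated Y79 cells, grouped by their labels. Per the file headers the intensity values deposited by the authors were made with Agilent Feature Extraction 9.5.3.1. Processed intensity is background-subtracted and detrended within an array. The deposited series table holds the raw median intensity, which for each of the 264 probes printed 10 times is that of the last spot.

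After removal of control spots and spots with an outlier flag, signals were scaled to the array median (50th percentile) with a floor of 0.01, and log2 values were averaged over the spots of a probe. Well above background meant at 50% of these spots or more. A probe dim on 1 array has a bound, set against the lowest signal well above background there. A bound takes the brighter signal as read, without its error. With 1 array per condition no p-value was computed, and the number of arrays limits the precision. The family members, the pathway list and the markers were chosen with earlier results of these data known. Members are named at every probe. Some items, among them a gene of the pathway list, are not reported here. By rule, pathway genes past the threshold and INS, INSR, IRS1 and IRS2 were named, and other pathway genes were added after their values were seen. Alternatives were other scalings, normexp (limma 3.58.1 in R 4.3.3, offset 50), the series table, other filters and thresholds, and leaving out the corner. Calling was tested on simulated data, with larger changes at brighter probes than the IGF1 and IGFBP1 calls and with no corner effect on the ratios.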

Additional observations from a re-analysis of the deposited data

How the results depend on the processing

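The count of 1 IGF family probe higher (IGFBP1) and 1 lower (IGF1) held under the 75th percentile, quantile normalization, no scaling, both filters on dim probes, and a ratio above 1.5 or below 0.55. The 75th percentile and no scaling change every ratio of these probes by the same amount. Requiring probes to be well above background on both arrays could not change the count, because 0 IGF family probes had a bound. At the ratio of 1.5 or 0.55, 4.01% of all probes were higher and 1.69% lower. The count became 0 higher and 0 lower with normexp, with normexp fitted without spots dimmer than their local background, and with the series table. Over all probes these settings called 0.181%, 0.436% and 0.303% higher, and 2.88%, 0.259% and 0.273% lower. Under these IGFBP1 was at 0.51, 0.77 and 0.69 on the log2 scale, and the IGF1 probe was at -0.58, -0.70 and -0.71. The series table keeps background in the signal, and both normexp settings add an offset of 50. What made these ratios smaller was not tested. Normexp moved the median of all probes to -0.19, and IGF1 lies 0.39 below that. Not every ratio shrank, since GSK3A went from -0.59 to -1.23 with normexp. Leaving out the corner gave 0 higher, because the only IGFBP1 spot lies there. The IGF1 probe, which has no spot there, was at -1.40. Both outcomes followed from where the spots lie and do not test either call. Over all probes 0.447% were higher and 0.64% lower without the corner. Keeping outlier spots, chosen after seeing the data, gave 2 higher through IGF2 at 3.53, where 1.33% of all probes were higher. Single ratios without the corner were not planned beforehand either.

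In the series table the repeated IGF1 probe stood at 0.27, in place of -0.21, because its row there is the corner spot. Single ratios kept within the technical SD of 0.14 in 98 of 116 recomputed values. Scaling to another percentile, no scaling, keeping outlier spots and leaving out the corner each shift ratios of probes with a single spot alike, by little. Those values could hardly move, so the 98 do not measure stability. The 18 that moved came from both normexp settings, the series table and, for IGFBP1 only, subtraction of the surrounding median. The count of 1 pathway gene higher (INS) became 0 with normexp and 0 without the corner, where its only spot lies. The count of 0 lower became 1 with normexp (GSK3A) and 2 at the ratio of 0.55 (STC2 and PIK3R1, both bounds). Over all probes 2.88% and 1.69% were lower under these settings. No replicate could be left out, and a change could not be seen at probes dim on both arrays. The dimmest probes marked well above background read 14.9 and 17.5. Some dim probes were brighter than that, such as Ep-CAM at 15.6 on the untreated array.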
